A study of Mus musculus with 11 samples.

Results

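The genes described here are the mitochondrially encoded subunits of respiratory complex I: mt-Nd1, mt-Nd2, mt-Nd3, mt-Nd4l, mt-Nd4, mt-Nd5 and mt-Nd6. They are 7 of the 22019 genes in the deposited table and were taken by identifier (ENSMUSG00000064341, ENSMUSG00000064345, ENSMUSG00000064360, ENSMUSG00000065947, ENSMUSG00000064363, ENSMUSG00000064367 and ENSMUSG00000064368, in that order). The table lists identifiers without gene names, so the names rest on the assignment by which the genes were chosen. The genes were chosen by measured values: in an earlier fit of these data, the change with diet of mitochondrially encoded messages was lower in disomes than in monosomes. That contrast is therefore given below as a description, without a test. The livers came from male mice of WT (wild-type) genotype fed either a chow diet or a high-fat, high-sugar diet (HFHS), and the assay sequenced the RNA that ribosomes shield from RNase I. Monosome footprints, of about 30 nt, mark single ribosomes, and disome footprints, of about 60 nt, mark 2 ribosomes in contact on 1 message, with no room for the nuclease to cut between them. The groups are 3 chow and 3 HFHS libraries of monosomes, and 3 chow and 2 HFHS libraries of disomes. The labels used here give neither the age of the mice nor the time on diet, and they do not say that each sample came from a separate animal.

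Complex I takes electrons from NADH, passes them to ubiquinone and pumps protons across the inner mitochondrial membrane. Its mitochondrially encoded subunits form the core of the membrane arm, while all its other subunits are encoded in the nucleus and imported. The mitochondrial messages are translated by mitochondrial ribosomes, which are distinct from the cytosolic ribosomes that translate the other messages of these libraries, and hepatocytes are rich in mitochondria. In the mitochondrial genome mt-Nd4l and mt-Nd4 lie next to each other and are translated from 1 shared message on which their reading frames overlap. The message of mt-Nd6 comes from the opposite strand to those of the other members, and its gene lies beside mt-Nd5. How reads in overlapping frames and on opposite strands were assigned is not given in the sources used here, so counts at these borders are uncertain. The gel sizes were set alike for all messages, and footprint lengths of mitochondrial ribosomes were not analysed here.

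Total counts ran from 795145 to 1612324 in monosome libraries and from 147212 to 279331 in disome libraries. The members together held 590 to 1717 counts in a monosome library and 95 to 260 in a disome library, so disome values are the less precise. They took 0.0673% ± 0.0060 of counts in chow monosomes (SD, n = 3), 0.106% ± 0.016 in HFHS monosomes (n = 3), 0.0855% ± 0.021 in chow disomes (n = 3) and 0.0731% ± 0.00097 in HFHS disomes (n = 2). Libraries are named here by the sample barcode in their column name. AGCTA, a chow barcode present in both classes, was unlike its group mates: over genes with a mean of at least 50 CPM (counts per 1000000 library counts), its log2 values correlated with theirs at r = 0.79 to 0.83, against r = 0.95 to 0.98 for all other pairs within a group. Several of the results that rest on AGCTA, though not all, are given with and without it. Levels below are CPM after TMM normalization over all 11 libraries. Within a group they are listed for ATCGT, then AGCTA, then CGTAA in chow, and for CTAGA, then GATCA (monosomes), then GCATA in HFHS. They are relative to the other genes of a library, and fewer cells of a type cannot be told apart from less RNA per cell in whole liver. No mRNA measurement is used here.

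The first comparison asked how the disome signal of each message compared with its monosome signal. It was averaged over the diets in 1 edgeR fit of all 11 libraries. mt-Nd4l stood lowest, 4.36-fold lower in disomes than in monosomes, and mt-Nd3, mt-Nd6 and mt-Nd2 were also lower. mt-Nd5 was the member that was higher, by 1.57-fold. mt-Nd1 and mt-Nd4 did not pass the test. These are means over the diets. Of the values within single diets, given below, those of mt-Nd4l lay closest together. The gap between the diets is the contrast by which the genes were chosen, so it is described without a test. Among all 7236 genes tested, 45.9% were called at an adjusted p below 0.05, with 20.9% higher in disomes and 25.1% lower. Against these shares, 1 of 7 members was called higher and 4 were called lower. The members had a median log2 ratio of -0.37, and all genes tested had one of -0.05. If all libraries varied alike, this average would correlate at 0.11 with the contrast by which the genes were chosen. With the spread of each member in its own class, for the 6 members that have one in disomes, the correlation was 0.08 to 0.18. Monosome and disome libraries carry different prefixes in their column names. Any difference in preparation that goes with the prefix cannot be told apart from one between footprint classes.

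mt-Nd4l encodes a short membrane subunit that sits between the quinone site and the pumping subunits. Its monosome level was 117, 149.6 and 131 CPM in chow and 211, 217 and 161 CPM in HFHS. Its disome level was 28.0, 44.9 and 25.9 CPM in chow and 37.0 and 50.2 CPM in HFHS. Every disome library thus lay below every monosome library, a pattern that 16.2% of all genes tested showed. The disome values rest on 7, 7 and 8 counts in chow and 9 and 12 in HFHS. The log2 ratio of disomes to monosomes was -2.12 ± 0.19 (SE, edgeR adjusted p = 6.97e-15, 95% interval -2.51 to -1.74), at the 3.84th percentile of all genes tested. The gene was called in all 19 alternatives, with a log2 ratio between -2.30 and -1.98. mt-Nd4, its neighbour on the shared message, had a log2 ratio of 0.22 ± 0.26 and was not called (edgeR adjusted p = 0.531, 95% interval -0.36 to 0.79).

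The pumping subunits are encoded by mt-Nd2, mt-Nd4 and mt-Nd5, which resemble bacterial ion antiporters. mt-Nd5 had 114, 136 and 103 CPM in chow monosomes and 219.8, 198 and 194 CPM in HFHS monosomes. In disomes it had 288, 160.3 and 304 CPM in chow and 238 and 226 CPM in HFHS. All disome values were above all chow monosome values, AGCTA by the smallest margin, and all but AGCTA were above all HFHS monosome values. Over all libraries the classes thus overlapped for mt-Nd5, while 10.9% of all genes tested had every disome library above every monosome library. The log2 ratio of disomes to monosomes was 0.65 ± 0.14 (edgeR adjusted p = 8.33e-05), and it was 0.81 without both AGCTA libraries. It was called in all 19 alternatives, between 0.55 and 0.81. Within single diets it was 1.12 ± 0.19 in chow and 0.19 ± 0.21 in HFHS.

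mt-Nd2 had 110.2, 133 and 116 CPM in chow monosomes and 245, 195 and 195 CPM in HFHS monosomes. All HFHS values thus lay above all chow values, as for 10.3% of all genes tested. In disomes it had 159.8, 83.4 and 155 CPM in chow and 111 and 109 CPM in HFHS, with the HFHS values inside the chow range. The low chow value was that of AGCTA. The log2 ratio was -0.37 ± 0.15 (edgeR adjusted p = 0.0369, between 0.00982 and 0.254 over 19 alternatives), and 10 of these called it. It missed the threshold without both AGCTA libraries (-0.24, adjusted p = 0.254). In edgeR it also missed it without the chow library AGCTA of either class (adjusted p = 0.0964 without the monosome and 0.137 without the disome library). The same held without the HFHS library CTAGA (adjusted p = 0.106 in monosomes and 0.0669 in disomes, edgeR) or the HFHS disome library GCATA (adjusted p = 0.0587, edgeR). DESeq2 did not call it (adjusted p = 0.0766). Within single diets the log2 ratio was 0.20 ± 0.20 in chow and -0.95 ± 0.23 in HFHS, so its sign was not the same in both.

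mt-Nd4 varied within every group of 3. Its monosome level was 114, 116 and 73.9 CPM in chow and 239, 109 and 181 CPM in HFHS. The HFHS library GATCA lay inside the chow range. Its disome level was 212, 135 and 93.8 CPM in chow and 168 and 163 CPM in HFHS, and these overlapped as well.

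mt-Nd1 encodes the subunit that lines much of the ubiquinone channel. It had 89.9, 95.7 and 110.4 CPM in chow monosomes and 146, 128 and 129 CPM in HFHS monosomes. Its disome level was 176, 103 and 113 CPM in chow and 82.2 and 83.7 CPM in HFHS. The HFHS values were all above chow in monosomes, as for 10.3% of all genes tested. In disomes they were all below chow, as for 10.7%. Both patterns belong to the contrast by which the genes were chosen, so they are descriptions. Averaged over diets the log2 ratio of disomes to monosomes was -0.14 ± 0.16 (edgeR adjusted p = 0.516, 95% interval -0.47 to 0.19), and with library totals in place of TMM its sign turned (0.0049). Library totals moved the median of all genes by 0.14 on this scale.

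mt-Nd3 and mt-Nd6 encode small membrane subunits near the junction with the matrix arm. mt-Nd3 had the lowest counts of the 7: its monosome level was 42.4, 49.9 and 53.7 CPM in chow and 109, 92.0 and 44.6 CPM in HFHS. Its disome counts were 19, 2 and 10 in chow and 3 and 4 in HFHS, or 75.9, 12.8 and 32.4 CPM and 12.3 and 16.7 CPM. Chow and HFHS overlapped in both classes. The log2 ratio of disomes to monosomes was -1.32 ± 0.42 (edgeR adjusted p = 0.0181), and 15 of 19 alternatives called it. Within single diets it was -0.17 ± 0.47 in chow and -2.47 ± 0.66 in HFHS. The averaged call was lost without the chow library CGTAA in monosomes (adjusted p = 0.0523) or disomes (adjusted p = 0.0669), and without the HFHS disome library CTAGA (adjusted p = 0.131) or GCATA (adjusted p = 0.0816), all from edgeR.

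mt-Nd6 had 85.6, 115 and 77.0 CPM in chow monosomes and 149, 136 and 105 CPM in HFHS monosomes. In disomes it had 99.9, 70.5 and 51.8 CPM in chow and 65.7 and 75.3 CPM in HFHS. AGCTA was the chow monosome library that reached into the HFHS range, and the disome values of both diets overlapped. The log2 ratio of disomes to monosomes was -0.60 ± 0.19 (edgeR adjusted p = 0.00587), and all 19 alternatives called it. Within single diets it was -0.32 ± 0.25 in chow and -0.88 ± 0.28 in HFHS. The count of 5 members called in the first comparison was 3 without the HFHS disome library CTAGA and 3 without GCATA.

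**Figure D1:**
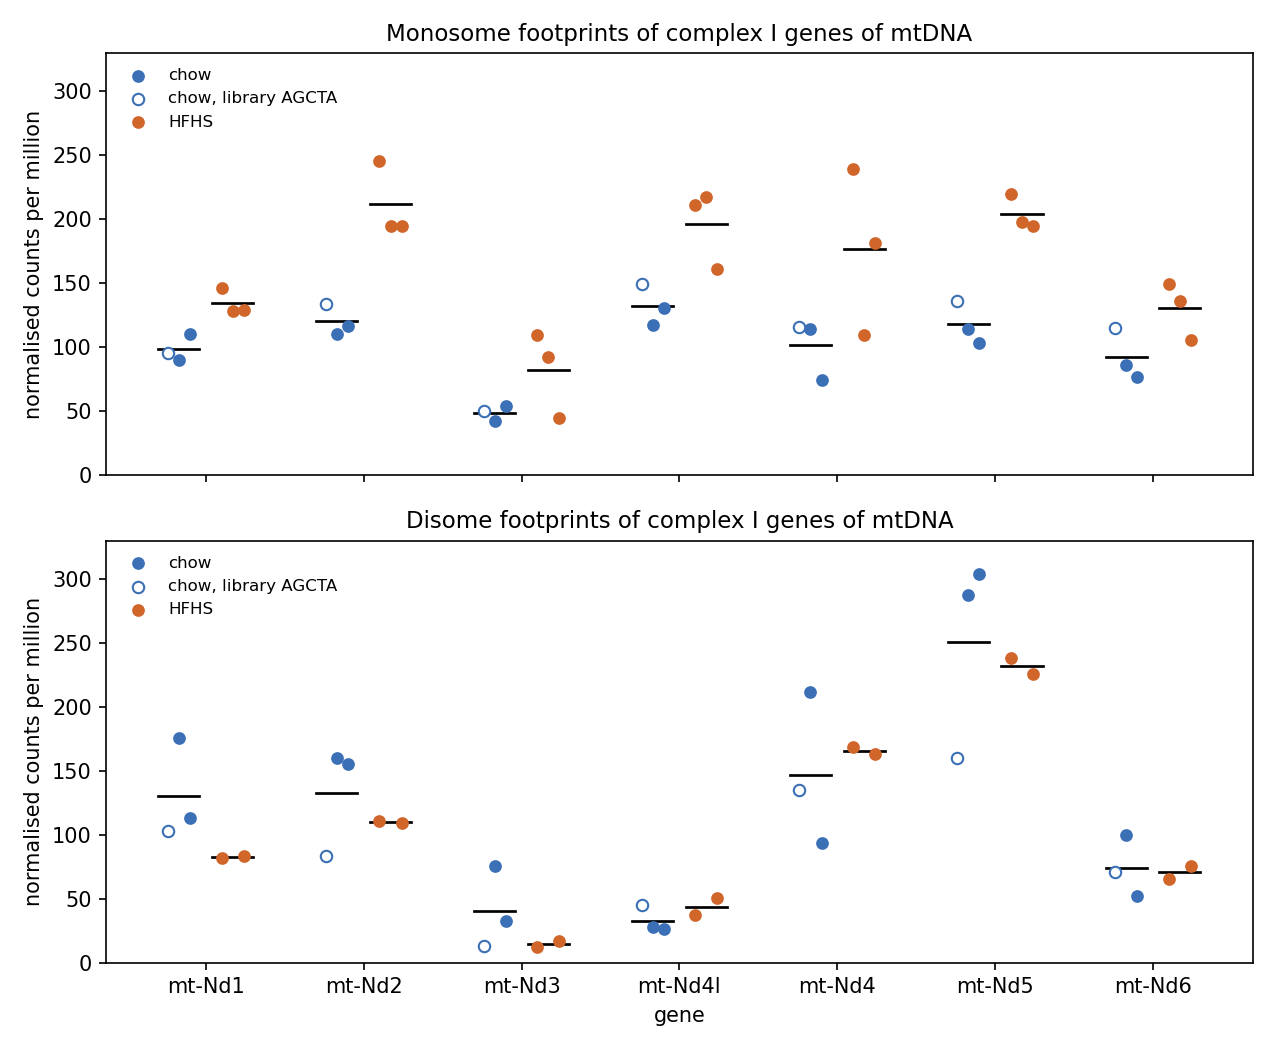
Each point is 1 library, with normalised CPM on the vertical axis, the 7 genes on the horizontal axis and a bar at the group mean; chow is blue, HFHS orange, and the chow library AGCTA an open circle. The monosome values of mt-Nd1, mt-Nd2, mt-Nd4l and mt-Nd5 in HFHS all lie above those in chow, as for 10.3% of all genes tested. The disome values of mt-Nd4l lie between 25.9 and 50.2.

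**Figure D2:**
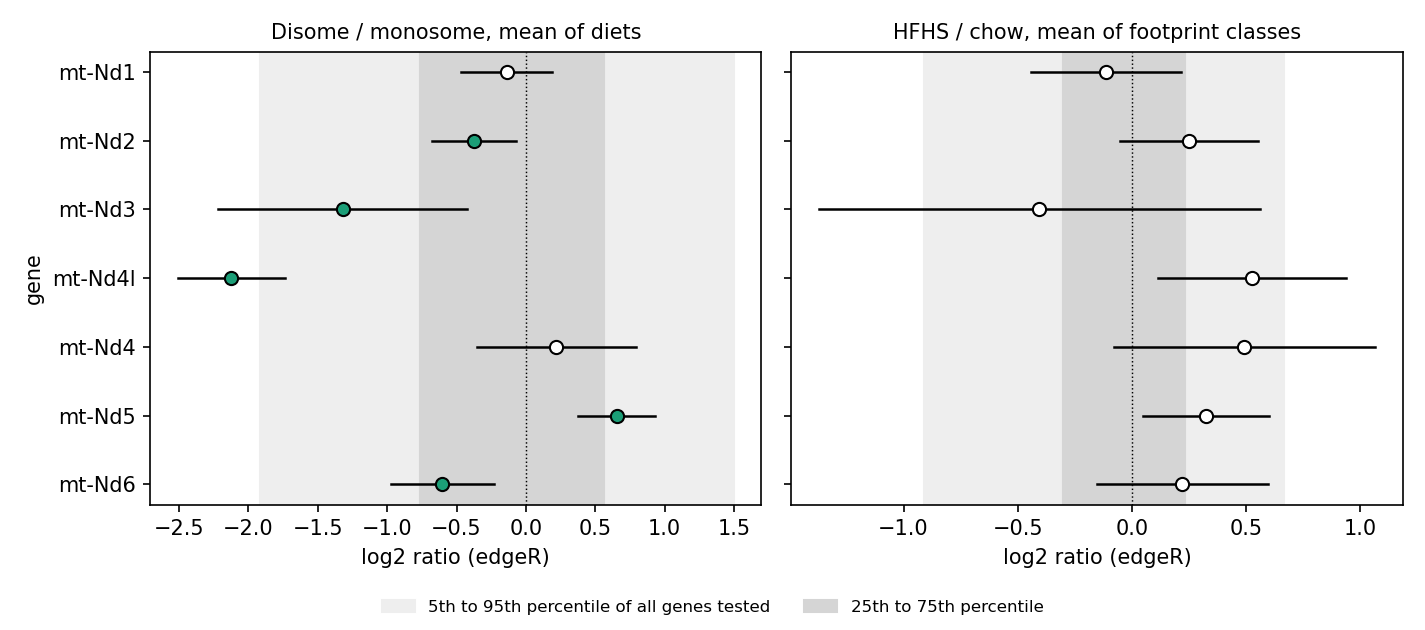
Points give the edgeR log2 ratio with its 95% interval for each gene, filled where the adjusted p was below 0.05, over bands of the percentiles of all genes tested. On the left (disome over monosome) mt-Nd4l lies at -2.12 and mt-Nd5 at 0.65; on the right (HFHS over chow, mean of both footprint classes) no point is filled.

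Dividing each member's counts by the members' summed counts in the same library removes the library normalization. mt-Nd5 took 15.5% to 19.2% of the members' counts in the 6 monosome libraries and 26.3% to 39.2% in the 5 disome libraries. mt-Nd4l took 15.9% to 20.2% in monosomes and 2.69% to 7.37% in disomes. For these genes the ranges of the classes did not overlap, and for the other 5 members they did. This measure exists only within the members, so it has no share over all genes. In CPM, every disome library lay above every monosome library for 10.9% of all genes tested, and below for 16.2%. By CPM mt-Nd4l was the member in the second set, and no member was in the first. At single libraries the counting error is wide in disomes. The highest disome share of mt-Nd4l, in AGCTA, was 7 of 95 counts (exact 95% binomial interval 3.01% to 14.6%), and its lowest monosome share, in GCATA, was 242 of 1518 counts (15.9%, interval 14.1% to 17.9%). The lowest disome share of mt-Nd5, in AGCTA, was 25 of 95 counts (26.3%, interval 17.8% to 36.4%), which overlaps the interval of its highest monosome share, 292 of 1518 counts in GCATA (19.2%, interval 17.3% to 21.3%). These intervals cover counting error only. mt-Nd4 took 14.8% ± 3.5 of the monosome counts (SD, n = 6) and 20.1% ± 4.6 of the disome counts (n = 5), and mt-Nd3 took 6.98% ± 1.6 and 3.52% ± 2.3. The shares of mt-Nd1 were 12.95% ± 1.9 and 14.3% ± 2.7, those of mt-Nd2 were 17.8% ± 1.1 and 15.9% ± 2.4, and those of mt-Nd6 were 12.2% ± 1.4 and 9.49% ± 1.8. A ratio within these genes shows that they differ from each other and not which of them moved.

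**Figure D3:**
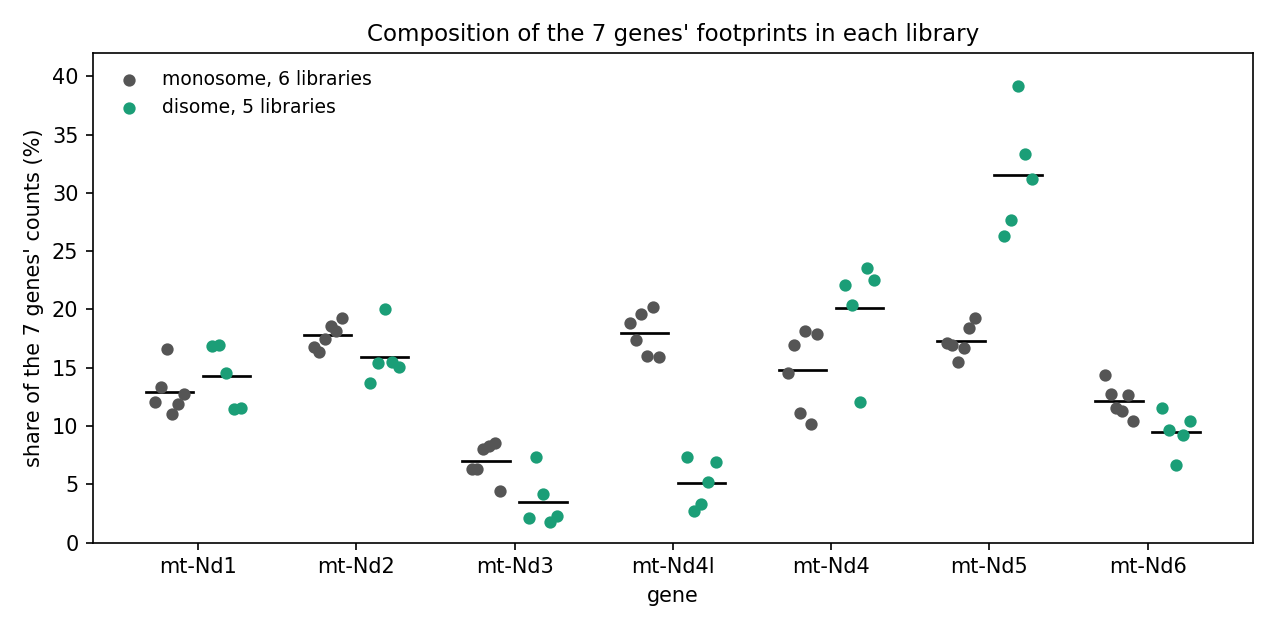
Each point is 1 library, with a gene's share of the 7 genes' summed counts on the vertical axis in percent, the genes on the horizontal axis and a bar at the mean of a footprint class; monosomes are grey and disomes green. The classes do not overlap for mt-Nd4l and mt-Nd5 and overlap for the other genes.

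Of the monosome and disome libraries, 5 pairs shared a barcode, which the labels do not tie to a liver. Within every pair mt-Nd5 had the highest ratio of disome to monosome CPM of the 7 members, and mt-Nd4l had the lowest or the second lowest. In the AGCTA pair the first rank was nearly a tie. There mt-Nd5 had a log2 ratio of 0.24 on 25 disome counts, and mt-Nd4 had 0.22 on 21. The log2 ratio of mt-Nd5 exceeded that of mt-Nd4l by 3.39, 1.97 and 3.89 in chow and by 2.63 and 1.90 in HFHS, in the order of barcodes given above. mt-Nd4 exceeded mt-Nd4l, which shares its message, by 1.53 to 2.95 in the 5 pairs. The order of the lowest ranks was not the same in all pairs, since mt-Nd3, with 2 to 19 disome counts, ranked between the fourth and the seventh.

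The second comparison asked whether these messages differed with diet in the mean over both footprint classes. With the spread of each member in its own class, this average correlated at -0.25 to 0.85 with the contrast that chose the genes (6 members), so it is not separate from the choice and is given as a description. No member passed the threshold, and 4.26% of all 7236 genes tested did (2.93% higher and 1.33% lower in HFHS; edgeR, adjusted p below 0.05). At an unadjusted p below 0.05 in the same edgeR fit there were 2 members, and 1104 of all 7236 genes tested. Nothing is read from these counts. mt-Nd4l had the largest log2 fold change of HFHS over chow, 0.53 ± 0.21 (95% interval 0.11 to 0.94). It was followed by mt-Nd4 with 0.49 ± 0.26, mt-Nd5 with 0.33 ± 0.14, mt-Nd2 with 0.25 ± 0.15 and mt-Nd6 with 0.22 ± 0.19. Below 0 were mt-Nd1 with -0.11 ± 0.16 and mt-Nd3 with -0.41 ± 0.45. The intervals reach up to 1.07 for mt-Nd4 and down to -1.37 for mt-Nd3, so the data leave a wide range of changes possible in these genes. The members' median was 0.25, and that of all genes was -0.02. DESeq2 also called no member. The count became 1, mt-Nd4, without the HFHS monosome library GATCA (0.62) and without a count filter (0.53). Of the calls over all genes, 68.8% were higher in HFHS, and 58.6% were with library totals in place of TMM.

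The diet effect within each class, and the difference between the classes, belong to the contrast by which the genes were chosen. If all libraries varied alike, the monosome and disome effects would correlate with it at -0.67 and 0.75. They are described here without a test. In monosomes all 7 members had a positive log2 fold change of HFHS over chow in the edgeR fit of the 6 monosome libraries. mt-Nd2 had 0.84 ± 0.15, mt-Nd4 0.82 ± 0.34, mt-Nd5 0.81 ± 0.15 and mt-Nd3 0.76 ± 0.29. mt-Nd4l had 0.59 ± 0.15, mt-Nd6 0.52 ± 0.17 and mt-Nd1 0.46 ± 0.15. The median of the members was 0.76, and that of all genes was -0.02. For mt-Nd1, mt-Nd2, mt-Nd4l and mt-Nd5, 4 of 7 members, every HFHS library lay above every chow library, as for 10.3% of all genes. The fit put 3 of 7 members (mt-Nd2, mt-Nd4l and mt-Nd5) and 3.02% of the 6754 genes past the threshold in the higher direction. These values entered the choice of the genes, so nothing is read from that count. It ran from 2 to 5 when single libraries were left out, with 5 without the HFHS library GCATA, and mt-Nd4l lay past the threshold in 2 of those 6 fits.

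In disomes the values lay on both sides of 0. The filter on low counts kept 6 members and left out mt-Nd3. mt-Nd1 had a log2 fold change of HFHS over chow of -0.74 ± 0.31, mt-Nd2 -0.40 ± 0.29, mt-Nd5 -0.23 ± 0.21 and mt-Nd6 -0.12 ± 0.36. mt-Nd4 had 0.12 ± 0.26 and mt-Nd4l 0.41 ± 0.53. None of the 6 lay past the threshold, and 2.96% of 2804 genes tested did. mt-Nd1 was the member with all HFHS disome libraries below all chow libraries, as for 10.7% of all genes. The chow disome library AGCTA held the lowest chow value of mt-Nd1, mt-Nd2, mt-Nd3 and mt-Nd5. Without it the log2 fold change was -0.84 for mt-Nd1, -0.58 for mt-Nd2 and -0.41 for mt-Nd5. The sign of mt-Nd4 turned without the chow library CGTAA (-0.18), and that of mt-Nd6 turned without the chow library ATCGT (0.17).

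The difference of the diet effects, disome minus monosome, was below 0 for all 7 members in the fit of all 11 libraries. It was -1.14 ± 0.30 for mt-Nd2, -1.12 ± 0.33 for mt-Nd1, -0.93 ± 0.28 for mt-Nd5, -0.62 ± 0.52 for mt-Nd4 and -0.56 ± 0.37 for mt-Nd6 on the log2 scale. For mt-Nd3 it was -2.30 ± 0.86, on disome counts as low as 2. mt-Nd4l, the member with the fewest disomes for its monosome level, had the value nearest 0 (-0.09 ± 0.42), and its sign turned without both AGCTA libraries (0.03), without the disome library AGCTA (0.13) and without the HFHS disome library CTAGA (0.10). Within single diets the log2 ratio of disomes to monosomes of mt-Nd5 was 1.12 ± 0.19 in chow and 0.19 ± 0.21 in HFHS. That of mt-Nd4l was -2.08 ± 0.26 and -2.17 ± 0.28. For mt-Nd1 it was 0.42 ± 0.21 and -0.70 ± 0.25, for mt-Nd2 0.20 ± 0.20 and -0.95 ± 0.23, and for mt-Nd4 0.53 ± 0.35 and -0.09 ± 0.38. In chow 1 member lay past the threshold in each direction, where 34.9% of all genes did (15.4% higher and 19.6% lower). In HFHS 5 members lay past it, all lower, where 26.7% of all genes did (12.2% higher and 14.5% lower), and nothing is read from these counts.

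In the fit that gave these differences, which does not have the barcode as a block, the share of genes called was 0%, that is 0 of 7236, with 358 at an unadjusted p below 0.05 and 0 called by DESeq2.

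**Figure D4:**
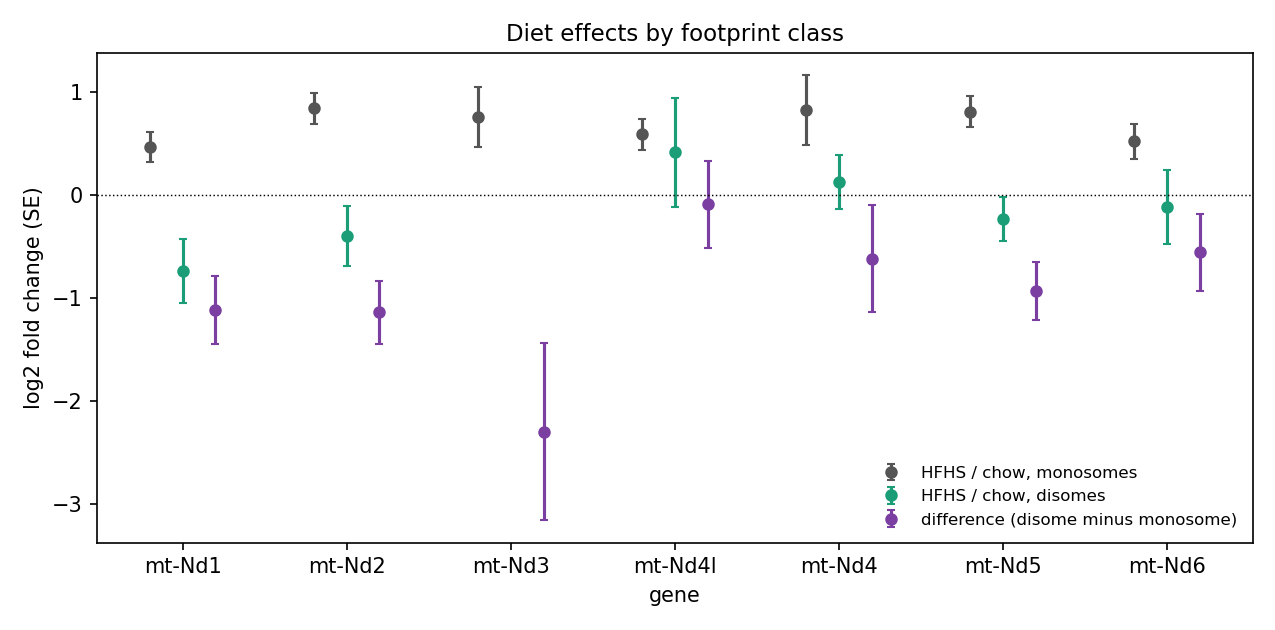
Points give the edgeR log2 fold change of HFHS over chow in monosomes (grey) and disomes (green) and their difference in the fit of all libraries (purple) for the 7 genes, with bars of 1 SE; mt-Nd3 has no disome point because it was under the count filter. Monosome points all lie above 0, between 0.46 and 0.84, and the differences lie between -2.30 and -0.09.

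The order of the groups differed between members. For the summed level of the 7, the means were 712 ± 72.6 CPM in chow monosomes, 719 ± 6.47 CPM in HFHS disomes, 808 ± 216 CPM in chow disomes and 1135 ± 163 CPM in HFHS monosomes (SD, n = 3, 2, 3 and 3). The range of chow disomes, 609 to 1039 CPM, covered the means of both groups below it and reached the lowest HFHS monosome library at 1010.4 CPM. Neighbours in this order therefore did not differ beyond their spread. mt-Nd5 was highest in chow disomes (251 ± 78.7 CPM) and lowest in chow monosomes (118 ± 16.7 CPM). mt-Nd4l ran the other way between the classes, from 197 ± 31.0 CPM in HFHS monosomes to 32.9 ± 10.4 CPM in chow disomes. mt-Nd2 was highest in HFHS monosomes (212 ± 29.0 CPM) and lowest in HFHS disomes (109.9 ± 1.50 CPM), and mt-Nd1 had the same order at its ends (134 ± 10.1 and 82.9 ± 1.08 CPM).

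The mitochondrial genome encodes 6 other proteins, subunits of cytochrome c oxidase, ATP synthase and the cytochrome bc1 complex. The identifiers of these 6 genes were listed from general knowledge of the annotation, which no file used here pairs with names, so they are given as a group. In the first comparison all 6 were called lower in disomes, with log2 ratios from -1.39 to -0.44 and a median of -0.74. The complex I members ran from -2.12 to 0.65. In the 5 pairs of libraries that shared a barcode, the log2 ratio of disomes to monosomes of the summed members exceeded that of the 6 others by 0.43 ± 0.12 (SD, n = 5), and it did so in each pair, from 0.28 to 0.59. The sum leans on mt-Nd5, which took 26.3% to 39.2% of the members' disome counts, and the excess was not computed without it. It is not a trait of each member, since mt-Nd4l, at -2.12, lay below the range of the 6 others. The complex I members took 26.8% ± 1.3 and 25.7% ± 0.46 of the mitochondrially encoded counts in chow and HFHS monosomes (n = 3 each). In disomes they took 32.7% ± 2.0 in chow (n = 3) and 32.0% ± 0.70 in HFHS (n = 2). In the second comparison none of the 6 was called, and their median log2 fold change was 0.29. Within the contrast used for the choice, their medians were 0.79 in monosomes, -0.26 in disomes and -0.97 for the difference.

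Likeness to the summed level of the 7 genes was measured as the Pearson correlation of log2(CPM + 1) over the 11 libraries, among 2173 other genes with a mean of at least 50 CPM. Of the 5 most like genes, 4 belonged to the 6 other mitochondrially encoded genes (ranks 1 to 4, r = 0.95 to 0.90). The fifth was ENSMUSG00000021091 (r = 0.86), which the files do not name. All 6 lay between rank 1 and rank 12, the lowest at r = 0.72. The libraries share diet, footprint class, any preparation that goes with the class, and depth, so these correlations are descriptions.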

How the data were processed

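The deposited table holds raw footprint counts per coding sequence, as whole numbers, for 22019 genes in 11 libraries. Trimming and alignment tools named in the submitters' processing notes are Bowtie2 and cutadapt 3.5. Per the labels' protocols, adaptors carried a sample barcode and unique molecular identifiers. The strand setting, annotation and build, and any use of the identifiers in counting, were not given in the sources used here. Columns name footprint class, diet (HFD, the labels' HFHS) and barcode, so each was placed in its group without a replicate number. The sample titles used here name no replicate 2 of the HFHS disomes, and none was analysed.

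Genes were tested in R 4.3.3 with edgeR 4.0.16 (filterByExpr with minimum count 10, TMM, robust quasi-likelihood F-test, two-sided, Benjamini-Hochberg over all genes tested, threshold 0.05). SE is the log2 fold change divided by the square root of F. Nothing says that samples came from separate animals, so p-values cover only sample-to-sample spread, which may be technical. The procedure was also run on simulated counts, with the same spread for all genes and no outlier library. These settings differ from the data, so nothing is read from that run. Alternatives were DESeq2 1.42.0, library totals, other filters, the mitochondrially encoded genes left out of normalization, no robust estimation, libraries left out and a barcode block (limma 3.58.1 for diet).

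The members and lists were chosen with earlier results of these data known. The rule names all 7 members. Another 11 lists (nuclear complex I subunits, assembly and mitochondrial translation factors, and cell type markers, liver's included) could not be matched, because 0 of 49997 RefSeq genes (GRCm38.p6) carried an Ensembl identifier. They, sequences and lengths were not analysed here.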

Additional observations from a re-analysis of the deposited data

Results flagged for a closer look

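With the barcode shared by a monosome and a disome library as a block, the difference of diet effects between disomes and monosomes was -1.24 for mt-Nd2 and -1.01 for mt-Nd5 on the log2 scale. They are listed because edgeR's contrast for the difference of diet effects lay past its threshold in that fit, and not without the block. This is the contrast by which the genes came to be chosen, so the values are a description and no test is drawn from them. The barcode is not tied to a liver by the labels.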

How the results depend on the processing

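Of the disome-to-monosome calls averaged over diets, those of mt-Nd4l, mt-Nd5 and mt-Nd6 held in all 19 alternatives. The 5 calls became 3 to 5 when single libraries were left out. For diet averaged over classes, the count of 0 became 1 (mt-Nd4) without a count filter and 0 to 1 without single libraries. Counts for diet and for the difference are descriptions, since these contrasts are not separate from the choice of the genes. In monosomes the 3 members past the threshold became 6 without a count filter and 2 to 5 without single libraries. With the sample barcode as a replicate block, 2 members lay past the threshold for the difference of diet effects in place of 0, and 7 of all genes did. The block changed no other count of members called: 5 for disomes against monosomes and 0 for diet as a random block. Same-barcode libraries deviated together at r = 0.68 to 0.86 in chow and 0.09 and 0.29 in HFHS. In chow each library correlated best with its own barcode, a weak hint from the data and not from the design. The deviations are from group means that hold AGCTA, an outlier in both classes, which pushes ATCGT and CGTAA the same way. Those 2 had r = 0.69 and 0.68 with their own barcode, against 0.54 and 0.55 at most with another. In HFHS, with 2 disome libraries, the deviations are mirror images and give no such order. No value whose sign turned was called. mt-Nd1 turned to 0.0049 with library totals for disomes against monosomes, and ran from -0.17 to 0.033 without single libraries for the averaged diet. For diet in disomes mt-Nd6 ran from -0.38 to 0.17 and mt-Nd4 from -0.18 to 0.51. For the difference of diet effects mt-Nd4l ran from -0.35 to 0.13, and was 0.032 without both AGCTA libraries. The cause of these changes was not tested. Disome counts summed over 5 libraries were 38 for mt-Nd3 and 43 for mt-Nd4l, the fewest of the members.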
